A study of Mus musculus with 9 samples.

Results

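The clustered protocadherins are cell surface adhesion proteins encoded by the Pcdha, Pcdhb and Pcdhg gene clusters of mouse chromosome 18. They were taken by symbol: every row of both deposited tables whose symbol is Pcdha followed by a number or c, Pcdhb followed by a number, or Pcdhga, Pcdhgb or Pcdhgc followed by a number. This gave 59 genes of the 23988 symbols that both tables hold, with 15 in the alpha, 22 in the beta and 22 in the gamma cluster. The rule used names and no measured value.

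An alpha or gamma gene has its own promoter and a large first exon that encodes the extracellular cadherin repeats, and this exon is spliced to constant exons that all genes of the cluster share. A beta gene has its whole coding sequence in 1 exon. In most neurons promoter choice, shaped by the insulator protein CTCF, by cohesin and by DNA methylation, leaves a few variable genes active in each cell, while the C-type genes at the ends of the alpha and gamma clusters are used more broadly. The proteins pair on a membrane and bind matching combinations on a neighbouring one, and they are known for self-avoidance of dendrites, axon tiling, synapse formation and the survival of interneurons.

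Total RNA was sequenced from the microdissected dentate gyrus of 9 wild-type C57BL/6 mice aged 8 weeks, one library per mouse, as 3 mice of group E0, 3 of E1 and 3 of E4. The numbers in the group names carry no unit in the labels. It is known of this study that they stand for hours after electroconvulsive stimulation, E0 being the mice without it. The question is how this activation of neurons changes RNA levels in an adult brain region, here in whole tissue that holds granule neurons, interneurons, glia and vessels. In such bulk samples, fewer cells of a type and less RNA per cell cannot be told apart.

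The authors deposited a comparison of E1 with E0 and one of E4 with E0, and for each gene these hold its mean normalised count and log2 fold change with a standard error (SE) and adjusted p. A gene was called raised or lowered where that adjusted p was below 0.05. Since counts are whole numbers, the reads of each library could be solved from the mean counts alone for 54 of the 59 genes. For Pcdhac2, Pcdhb9 and Pcdhga11 they were chosen among read combinations that lie near the deposited fold changes and keep the libraries of a group alike, so their values per library are less certain and their separation of groups is not independent of the deposited result. Pcdhgc3 and Pcdhgc5 were not solved. They are given below as normalised counts (reads over the size factor of the library), with the libraries of a group named a, b and c from the deepest to the shallowest, because the labels' replicate numbers cannot be assigned to them. Depth was not observed and was estimated as a library's size factor times the summed mean counts of the table for E4. On this estimate libraries held about 6140000 to 10960000 reads in E0, 1948000 to 4775000 in E1 and 10020000 to 13550000 in E4. A single read was therefore worth 2.03 to 4.97 normalised counts in E1 and 0.715 to 1.58 in the other groups. All 10 granule neuron markers of a fixed list were well read, with mean counts from 267 for Tdo2 to 3323 for Bcl11b in the authors' deposited table for E4.

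Pcdhgc5 and Pcdhgc3, of the gamma C-type, were the most abundant clustered protocadherins in E0. Per kilobase of exon that a gene does not share with others, the E0 level of Pcdhgc5 was 446 normalised counts and that of Pcdhgc3 was 380, both derived from the mean and fold change of the authors' deposited table for E4. Pcdhga11 followed at 126, the alpha C-type gene Pcdhac2 at 72.1 and Pcdhb9 at 67.9. The other C-type genes were far lower, Pcdhgc4 at 28.3 and Pcdhac1 at 10.8 per kilobase.

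Among the genes other than C-type, the 19 gamma A and B genes lay between 10.3 and 126 normalised counts per kilobase in E0, with a median of 37.2. The 22 beta genes lay between 0.228 and 67.9, with a median of 11.4. The 12 alpha variable genes with an annotated exon lay between 0 and 18.4, Pcdha5 being the highest. Every gamma A and B gene except Pcdhgb8 was above every alpha variable gene on this scale. The exon lengths come from a GRCm38 annotation and the files from mm9. How the authors treated reads in shared exons, or reads that match several of these similar genes, is not given in the sources used here, and levels of close relatives are uncertain to that extent.

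**Figure D1:**
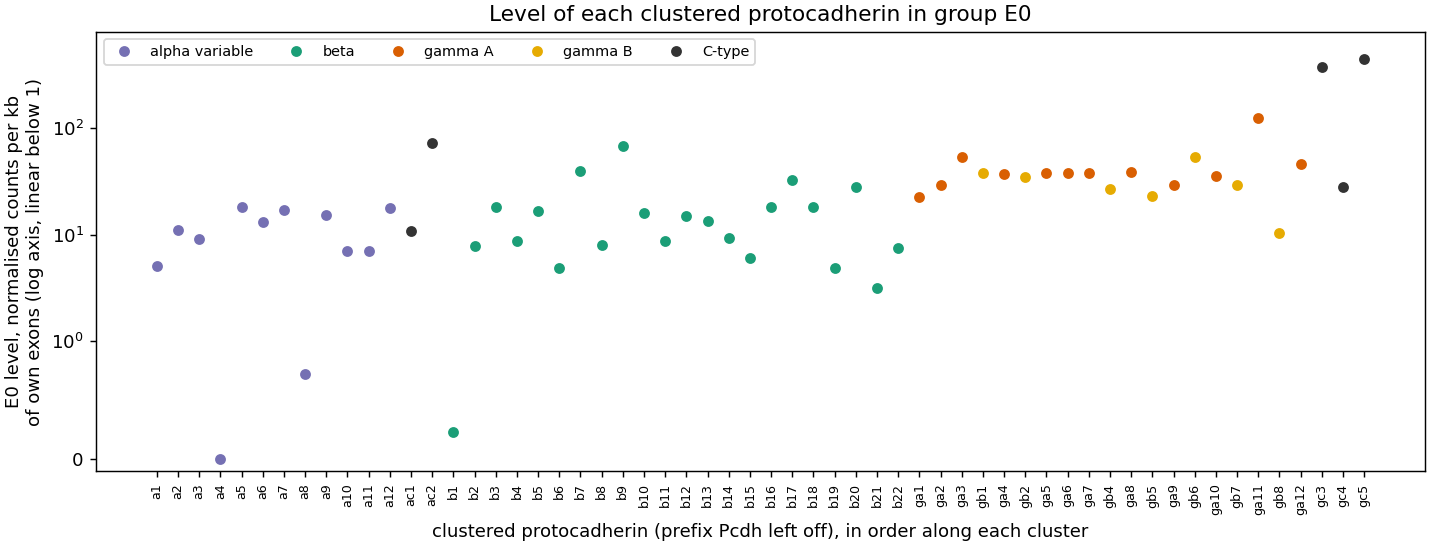
Level of 58 clustered protocadherins in E0, in normalised counts per kilobase of own exons on a log axis that turns linear below 1, in order along each cluster and coloured by class. Points are means of 3 libraries, or for Pcdhgc3 and Pcdhgc5 derived from the deposited mean and fold change; these C-type genes stand at 380 and 446, and Pcdha4 at 0.

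A few genes were hardly read. Pcdha4 had 1 read in the 9 libraries, in E4c, and Pcdha4-g had none. Pcdha8 reached 0 reads in E0a, 5 in E0b and 0 in E0c, and Pcdhb1 had 2 reads in each of 3 libraries and 0 in the rest. None of them was called, and 53 of the 59 had a mean of at least 5 normalised counts over the 9 libraries, which also leaves out Pcdhgc3 and Pcdhgc5 for want of reads per library.

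Few clustered protocadherins were called at E1. Of the family, 56 in the authors' deposited table had an adjusted p, of which 1 was raised, 1 was lowered and 54 were not called. Each direction comes to 1.79% of the family, beside 20.6% of all tested genes raised and 15.0% lowered. Among genes with mean counts of 10 to 300, 19.9% were raised and 14.6% lowered. These genes were better read than the family, with a median mean count of 80.7 beside 32.4. The median log2 fold change of the family in the authors' deposited table was -0.05, beside 0.02 over all genes. The median SE was 0.35 for the family, 0.25 for the genes with mean counts of 10 to 300 and 0.23 for all genes. Changes therefore had to be larger in the family to be called.

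Pcdhgc3, a gamma C-type gene, fell to 0.588 of its E0 level at E1 in the authors' deposited table. Its log2 fold change in the authors' deposited table was -0.77 ± 0.14 (SE), with an adjusted p of 5.51e-07. Group means derived from that table were about 969 normalised counts in E0 and 570 in E1. The table for E4 put its E0 mean at 975 and its E4 mean at 1085, a log2 fold change of 0.15 ± 0.09 with an adjusted p of 0.191 in the authors' deposited table. Reads per library were not solved for this gene, so no overlap between libraries can be given.

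Pcdha11, an alpha variable gene, rose at E1. It had 15.0, 14.9 and 22.1 normalised counts in E0a, E0b and E0c, and 48.7, 46.0 and 34.8 in E1a, E1b and E1c. Every E1 library was above every E0 library, although the E1 values rest on 24, 16 and 7 reads. The authors' deposited table gives a log2 fold change of 1.11 ± 0.43 (SE) with an adjusted p of 0.0281. By E4 the gene stood at 20.0, 13.3 and 22.2 normalised counts, overlapping E0, with a log2 fold change of 0.09 ± 0.37 in the authors' deposited table.

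Most alpha genes had higher values at E1, although Pcdha11 was the only one called there in the authors' deposited table. Of the 13 alpha genes tested 11 had a positive fold change in the authors' deposited table, with a median of 0.22. Among genes with mean counts of 10 to 300, 4384 of 9060 had a positive one. The level summed over 10 alpha variable genes was 319, 261 and 312 normalised counts in the E0 libraries and 355, 443 and 398 in the E1 libraries, and the groups did not overlap. The ratio of the group means was 0.42 on the log2 scale. The median gene of the limma voom fit described below lay at 0.13 in this comparison. In E4 the sum was 261, 242 and 219, below every E1 library, with the highest E4 and the lowest E0 library both at 261.

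Pcdhac2, the most read alpha gene, had 218, 184 and 252 normalised counts in E0 and 239, 262 and 263 in E1. The groups overlapped, and its log2 fold change was 0.22 ± 0.20 with an adjusted p of 0.443 in the authors' deposited table. Pcdha12 and Pcdha5, the next most read alpha genes in the table for E4, were not called either, and the authors' deposited table for E1 gives them log2 fold changes of 0.05 ± 0.41 and -0.03 ± 0.40. Pcdha7 and Pcdha9, which have higher mean counts than these in the authors' deposited table for E1, had log2 fold changes there of 0.39 ± 0.38 and 0.45 ± 0.38 and were not called. Pcdha10, chosen for mention after its values were seen, had 19.4, 17.0 and 15.8 normalised counts in E0 and 34.5, 57.5 and 19.9 in E1. The groups were separated by less than 1 read. The E1c value rests on 4 reads, each worth 4.97 normalised counts. The gene was not called, with an adjusted p of 0.108 in the authors' deposited table.

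Marker genes of other cells also moved at E1. Beside their counts stand 20.6% of all tested genes raised and 15.0% lowered at E1, and 20.7% and 18.3% at E4. Of 10 markers of GABAergic interneurons 7 were raised and 0 lowered in the authors' deposited table, with a median log2 fold change of 0.98. Summed over the 6 of them with solved reads, their level was 361 to 398 normalised counts in E0, 736 to 811 in E1 and 326 to 353 in E4. None of the 6 was at 0 in any group. Derived group means summed over all 10 came to about 5070 in E0, 8780 in E1 and 5580 in E4. At E4 the 6 markers were thus below E0, and the full list was not. For endothelium 3 of 7 markers were raised in the authors' deposited table, with sums over 6 markers of 312 to 759 normalised counts in E0, 781 to 1180 in E1 and 470 to 589 in E4. For CA pyramidal neurons 2 of 7 markers were raised and 1 lowered in the authors' deposited table. The 3 with solved reads summed to 22.1 to 61.8 normalised counts in E0, 73.0 to 229 in E1 and 15.7 to 20.3 in E4. Derived group means over all 7 summed to about 1410 in E0, 2490 in E1 and 1850 in E4, so the full list was not lower at E4. Of 10 granule neuron markers 8 were lowered and 2 raised at E1 in the authors' deposited table, with Dsp at -2.41 ± 0.14 and Tdo2 at -1.97 ± 0.20. Among glial and immature neuron markers, 0 of 9 astrocyte, 0 of 8 microglia, 1 of 9 oligodendrocyte and 2 of 7 immature neuron markers were raised and 5, 3, 2 and 1 lowered at E1 in the authors' deposited table. At E4 the granule neuron list had 3 raised and 5 lowered and the interneuron list 1 raised and 0 lowered in the authors' deposited table. The interneuron, endothelial and CA pyramidal sums were highest in E1, like the alpha sums. So were the derived sums over all immature neuron markers (2360 in E0, 3750 in E1 and 3530 in E4) and oligodendrocyte markers (12000, 12300 and 11800). Those of granule neurons, astrocytes and microglia were highest in E0. The part of these cell types in the result was not tested.

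Beta and gamma genes were nearly all without a call at E1. None of the 21 tested beta genes was called in the authors' deposited table (1 had an unadjusted p below 0.05, and a limma voom fit described below called 1), with fold changes from -0.69 to 0.70 on the log2 scale and a median of -0.05. Of the 19 gamma A and B genes none was called (again 1 by unadjusted p and 1 by voom). Of these 18 had a negative fold change, with a median of -0.13 in the authors' deposited table. Among genes with mean counts of 10 to 300, 4676 of 9060 had a negative fold change at E1. The summed level of the gamma A and B genes was 2028, 1789 and 2159 normalised counts in E0. In E1 it was 1718, 1837 and 1556, so the groups overlapped at 1 library. Pcdhgc4 had 148, 135 and 79.5 normalised counts in E1 against 96.3, 71.4 and 78.9 in E0, and Pcdhgc5 had a log2 fold change of 0.04 ± 0.14 in the authors' deposited table. Neither gene was called. Over the 3 C-type genes with solved reads, Pcdhac1, Pcdhac2 and Pcdhgc4, the sum was 348, 278 and 358 normalised counts in E0 and 416, 425 and 388 in E1, without overlap. Without Pcdhac2 the sums of the groups overlapped, from 93.8 to 129.8 in E0 and from 124.3 to 176.5 in E1. These sums leave out Pcdhgc3 and Pcdhgc5, which hold most of the C-type level. Together their derived means came to about 2143 normalised counts in E0 and 1764 in E1, so the class as a whole was not raised.

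**Figure D2:**
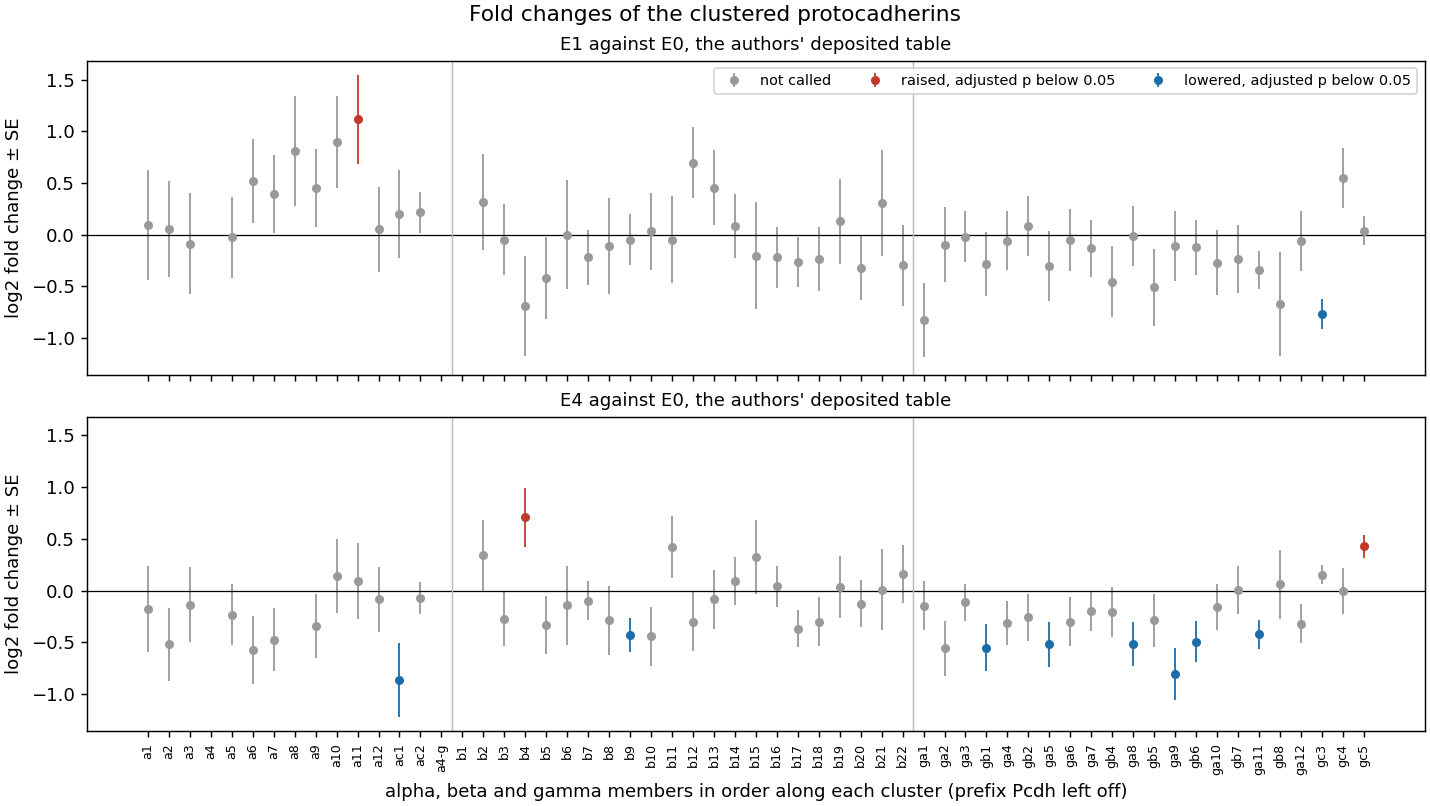
Log2 fold change of every tested clustered protocadherin with its SE, from the authors' deposited tables for E1 and for E4, in order along the alpha, beta and gamma clusters separated by grey lines. Coloured points have an adjusted p below 0.05: Pcdha11 and Pcdhgc3 at E1, and 10 genes at E4, of which 6 are gamma A or B genes below 0.

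At E4 more members were called and most of these were lower. Of 55 tested genes the authors' deposited table has 2 raised, 8 lowered and 45 not called. The lowered genes are 14.5% of the family, beside 18.3% of all tested genes and 17.3% of genes with mean counts of 10 to 300. The raised genes are 3.64%, beside 20.7% of all tested genes and 10.7% of those with mean counts of 10 to 300. The median log2 fold change was -0.20 for the family in the authors' deposited table, beside -0.10 for all genes of that range of counts and -0.01 for all genes.

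The lowered genes were mostly gamma A and B genes, the variable genes of that cluster. Of 19 such genes 6 were lowered and 0 raised in the authors' deposited table (0 raised also by unadjusted p and by voom). A negative fold change was found in 17, and the median was -0.30. Of genes with mean counts of 10 to 300, 17.3% were lowered, and 4245 of 7270 had a negative fold change. The median SE was 0.22 for gamma A and B, 0.28 for beta and 0.34 for alpha variable genes. Smaller changes could therefore be called in gamma A and B genes. The summed level of the gamma A and B genes was 1568, 1550 and 1542 normalised counts in E4a, E4b and E4c, below each E0 library (2028, 1789 and 2159). The ratio of the group means was -0.36 on the log2 scale, and -0.34 without Pcdhga11, beside -0.15 for the median gene of the voom fit described below. All 12 gamma A genes were below 0 in this comparison, and 5 of the 7 gamma B genes were.

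**Figure D3:**
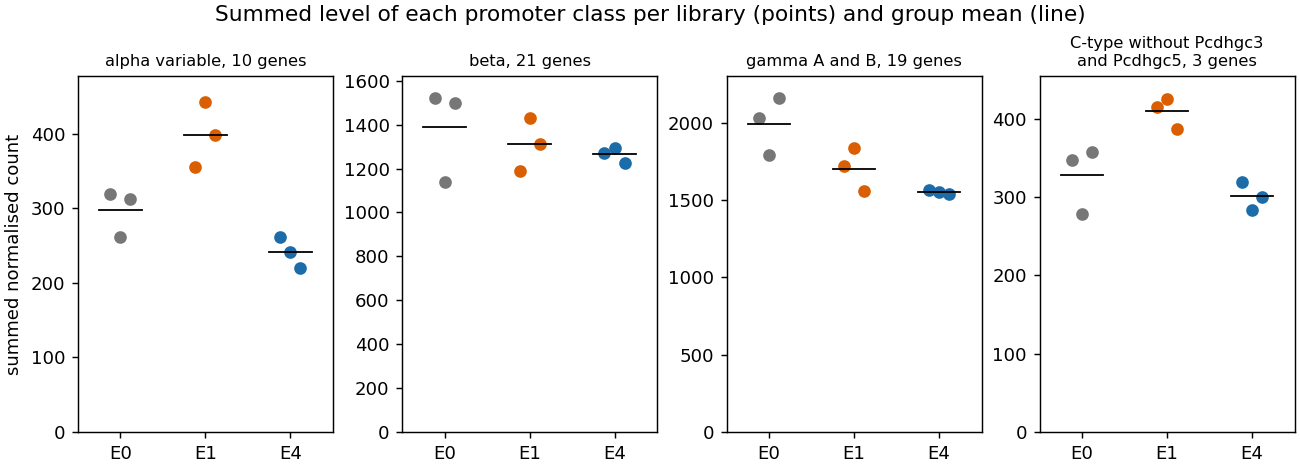
Summed normalised count of each class of clustered protocadherins per library, from solved reads, with 3 libraries per group and a line at the group mean. The C-type panel leaves out Pcdhgc3 and Pcdhgc5, the most abundant C-type genes, whose reads were not solved. The alpha variable sum is 355 to 443 in E1, above both other groups, and the gamma A and B sum is 1542 to 1568 in E4, below E0.

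Pcdhga9 fell most among them. It had 73.3, 68.2 and 86.8 normalised counts in E0 and 49.3, 40.7 and 31.9 in E4, and the groups did not overlap. The log2 fold change was -0.81 ± 0.25 (SE) with an adjusted p of 0.00534 in the authors' deposited table. Its E1 libraries spread from 34.8 to 97.4 across both other groups.

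Pcdhga11, the most read gamma A gene, had 344, 298 and 356 normalised counts in E0 and 231, 278 and 231 in E4. Its log2 fold change was -0.42 ± 0.14 with an adjusted p of 0.00959 in the authors' deposited table. The E1 libraries, at 292, 250 and 229, were also below each E0 library, but the gene was not called there (-0.34 ± 0.19, adjusted p of 0.146 in the authors' deposited table).

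The other gamma A and B genes called at E4 were Pcdhgb6, Pcdhgb1, Pcdhga8 and Pcdhga5. Pcdhgb6 had 126, 113 and 174 normalised counts in E0 and 92.9, 90.9 and 100.5 in E4, and Pcdhgb1 had 121, 85.2 and 89.9 in E0 and 71.5, 69.1 and 57.0 in E4. Pcdhga8 went from 112, 102 and 91.5 normalised counts to 74.3, 62.5 and 73.4, and Pcdhga5 from 83.0, 95.9 and 109 to 61.5, 60.6 and 72.5. In each of these genes every E4 library was below every E0 library. Their log2 fold changes in the authors' deposited table were -0.49 ± 0.20, -0.55 ± 0.22, -0.51 ± 0.21 and -0.52 ± 0.22, with adjusted p between 0.0358 and 0.0467.

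Outside the gamma A and B genes, the call at E4 was lowered for Pcdhac1 and Pcdhb9. The alpha C-type gene Pcdhac1 had 33.6, 22.4 and 26.8 normalised counts in E0, 28.4, 28.7 and 44.7 in E1 and 14.3, 11.4 and 13.5 in E4. The E4 libraries were below all the others, and the log2 fold change was -0.86 ± 0.36 with an adjusted p of 0.0415 in the authors' deposited table. Pcdhb9, the most read beta gene, went from 201, 188 and 233 normalised counts in E0 to 145, 152 and 158 in E4, with a log2 fold change of -0.43 ± 0.16 and an adjusted p of 0.0228 in the authors' deposited table. Pcdhb17 and Pcdhb7, the next most read beta genes, were not called, at -0.37 ± 0.18 and -0.10 ± 0.19 in the authors' deposited table.

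Pcdhgc5 and Pcdhb4 were the 2 genes called raised at E4 in the authors' deposited table. Pcdhgc5, the last gene of the gamma cluster and the most abundant one, rose by 0.43 ± 0.11 on the log2 scale with an adjusted p of 0.00077 in the authors' deposited table. Group means derived from that table were about 1168 normalised counts in E0 and 1572 in E4, a fold of 1.35. Together Pcdhgc3 and Pcdhgc5 made up about 50.8% of the summed gamma level in E0, 49.2% in E1 and 61.9% in E4, from derived means for these genes and solved reads for the other 20. The remaining C-type genes Pcdhac2 and Pcdhgc4 were not called at E4, and the authors' deposited table gives them log2 fold changes of -0.07 ± 0.16 and 0.00 ± 0.22.

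Pcdhb4 had 30.0, 26.6 and 39.4 normalised counts in E0, 22.3, 23.0 and 0 in E1 and 46.4, 67.2 and 52.2 in E4. The 3 groups were fully separated, lowest in E1 and highest in E4. The E1c library had 0 reads, which at 3 reads allows a level of up to 14.9 normalised counts, counting error only. The authors' deposited table for E4 gives a log2 fold change of 0.71 ± 0.28 with an adjusted p of 0.034, and the one for E1 gives -0.69 ± 0.48 with an adjusted p of 0.279.

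**Figure D4:**
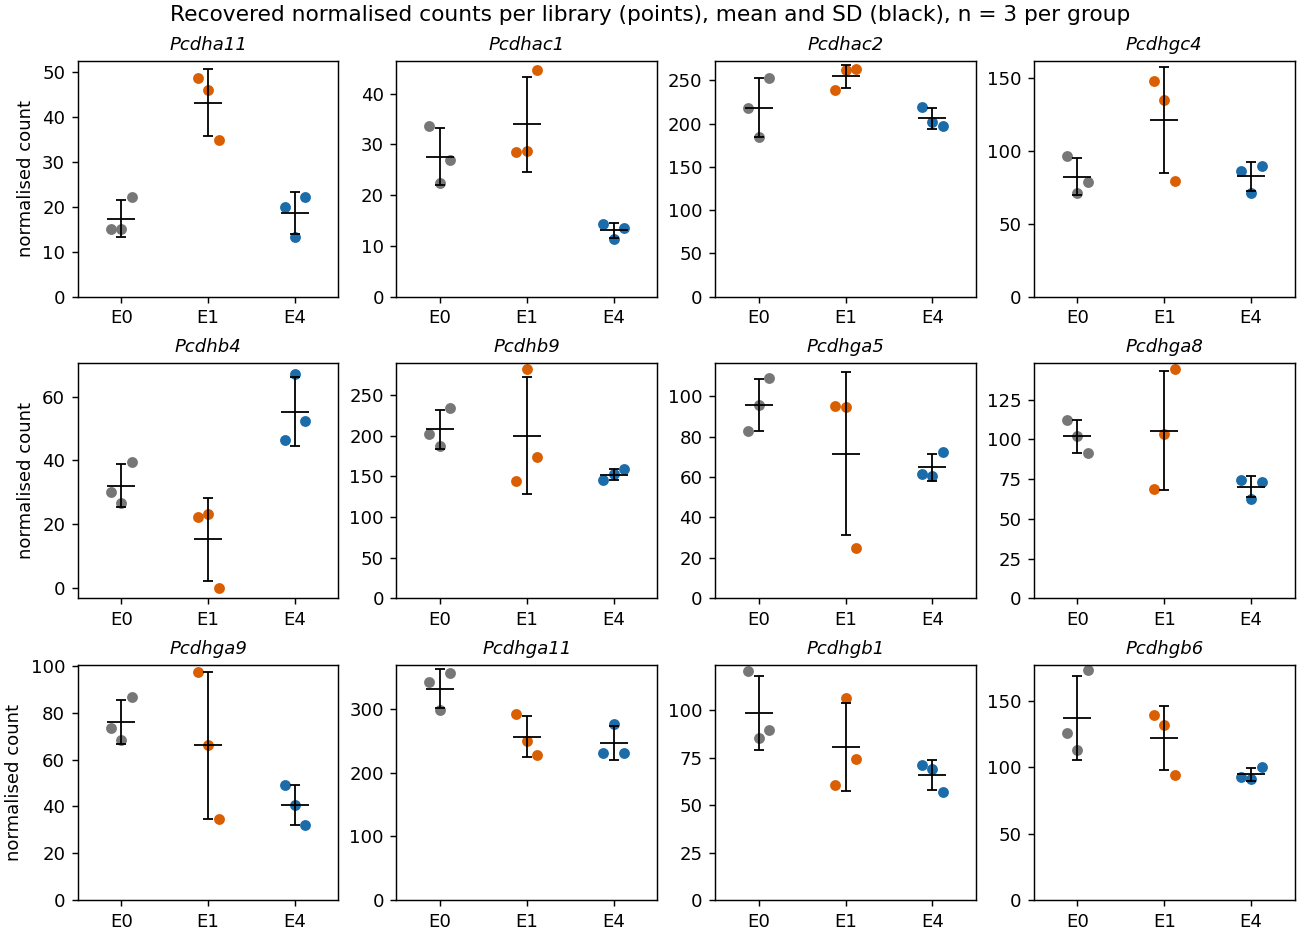
Normalised counts per library (points, libraries a to c from left to right) with the mean and SD (n = 3) for 12 named clustered protocadherins, in E0, E1 and E4. In the 8 genes called lowered at E4 (Pcdhac1, Pcdhb9, Pcdhga5, Pcdhga8, Pcdhga9, Pcdhga11, Pcdhgb1 and Pcdhgb6) the 3 E4 points lie below the 3 E0 points. The calls come from the same libraries, so this separation is no separate support. The points of Pcdhac2, Pcdhb9 and Pcdhga11 rest on reads chosen near the deposited fold changes.

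E4 was set against E1 by subtracting one deposited log2 fold change from the other and dividing by the root of their summed squared SEs. This treats both tables as independent although they share the E0 libraries. Of 50 clustered protocadherins tested 2 were higher in E4 and 0 lower (3 and 2 by unadjusted p below 0.05, and 1 and 6 by the limma voom fit below), beside 17.7% of all 12769 tested genes higher and 19.0% lower. Pcdhgc3 was higher by 0.92 ± 0.17 on the log2 scale with an adjusted p of 5.95e-07, and Pcdhb4 by 1.40 ± 0.56 with an adjusted p of 0.0362. All 11 tested alpha genes were below 0, with a median difference of -0.75. Among tested genes with mean counts of 10 to 300 in the authors' deposited table for E4, 3695 of 6588 were below 0. The median of those genes was -0.12. No alpha gene was called by this test (1 had an unadjusted p below 0.05), whereas the voom fit called 4 alpha genes lower.

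The solved reads allowed another test on the same libraries, which is not independent of the deposited one. A limma voom fit on 5923 genes with solved reads and a mean of at least 5 normalised counts included 53 clustered protocadherins. For E1 against E0 it called 4, which is 7.55% of them beside 31.2% of all genes in the fit. Pcdha11 was again among them, at 1.44 ± 0.37 with an adjusted p of 0.00507, and was called with every library left out in turn. The others were Pcdhb12 and Pcdha10, raised, and Pcdhga1, lowered, named after their values were seen. Over the 9 fits that leave out a library, Pcdhb12 kept its call in 5, Pcdhga1 in 2 and Pcdha10 in 1, and the fit called 1 member without E0b or E1b and 2 without E0c, E1a, E4a or E4c.

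For E4 against E0 the voom fit called 5 genes, 9.43% beside 17.3% of all genes, all lowered and all lowered also in the authors' deposited table. They were Pcdhga9, Pcdhga11, Pcdhac1, Pcdhgb1 and Pcdhga8, with adjusted p between 0.0173 and 0.0461. For Pcdhga11 the call carries no information of its own, since its reads were chosen near the deposited fold change. The other 4 calls come from another model on the same reads, so their shared direction is no independent support. Pcdhga9 was at -0.86 ± 0.24 and Pcdhac1 at -1.06 ± 0.33. Without E0a or without E4c the fit called 0 members, without E0c, E4a or E4b it called 1, and without E0b it called 7. For Pcdhga9 the log2 fold change ranged from -1.04 to -0.71 over the 9 fits that leave out a library, and its highest adjusted p was 0.078.

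For E4 against E1 the voom fit called 7 genes, 13.2% beside 38.0% of all genes. Pcdhb4 was higher by 1.997 ± 0.587, and Pcdha11 (-1.31 ± 0.34), Pcdhac1 (-1.27 ± 0.38) and Pcdhb12 (-1.12 ± 0.28) were lower, and these 4 calls were made with any library left out. Without E1c the Pcdhb4 estimate was 1.19. Pcdhgc4, Pcdha6 and Pcdha7 were also called lower, with the call kept in 5, 5 and 4 of the 9 fits, and without E1b or E4b the fit called 4 members. The median gene of the fit lay at 0.13 for E1 and -0.15 for E4 against E0 and at -0.30 for E4 against E1, beside 0.12 and -0.11 for the same genes in the authors' deposited tables for E1 and E4.

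The libraries of a pair of groups were completely separated in a minority of genes. Of the 53 genes, 6 had all E1 libraries below all E0 libraries and 3 had them above, 11.3% and 5.66% beside 16.0% and 27.3% of the 5923 genes. For E4, 15 lay below E0 and 1 above, 28.3% and 1.89% beside 22.5% and 11.6%. Among the 19 gamma A and B genes 8, or 42.1%, lay below E0 at E4. Without Pcdhac2, Pcdhb9 and Pcdhga11, 13 of 50 genes and 7 of 18 gamma A and B genes lay below E0 at E4. Between E4 and E1, 7 genes were lower and 4 higher, 13.2% and 7.55% beside 34.1% and 14.5%.

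The spread of fold changes within a class was close to or below the SE of its genes. The SD of the log2 fold changes across the gamma A and B genes was 0.24 at E1 and 0.22 at E4, and the median SEs in the authors' deposited table were 0.31 and 0.22. For beta genes the SDs were 0.31 and 0.31 beside median SEs of 0.37 and 0.28, and for alpha variable genes 0.41 and 0.25 beside 0.43 and 0.34. Position along a cluster, counted from its first gene, had a Spearman correlation with the log2 fold change of 0.37 and 0.27 over 13 and 12 alpha genes at E1 and E4. It was -0.06 and 0.06 over 21 beta genes, and -0.19 and 0.13 over 19 gamma A and B genes. These are descriptions over neighbouring genes that share regulatory DNA, and weak ones.

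Some genes known to act on the clusters were called at both times. Over all tested genes 20.6% were raised and 15.0% lowered at E1, and 20.7% and 18.3% at E4. Of 11 CTCF and cohesin genes 2 were raised and 1 lowered at E1, and 6 raised and 1 lowered at E4, in the authors' deposited table. Their median log2 fold changes there were 0.04 and 0.31, beside 0.02 and -0.01 over all genes. Ctcf itself had log2 fold changes of 0.00 ± 0.15 at E1 and 0.31 ± 0.12 at E4 (adjusted p of 0.0229) in the authors' deposited table. Pds5a, a cohesin regulator, rose by 0.55 ± 0.11 at E4, and the cohesin subunit Rad21 fell by 0.55 ± 0.13 at E1 and by 0.28 ± 0.11 at E4, in the authors' deposited table. The loader Nipbl and the releaser Wapal were raised at both times.

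The same shares of all genes, 20.6% and 15.0% at E1 and 20.7% and 18.3% at E4, stand beside the next 2 lists. Of 11 genes of DNA methylation and silencing none was called at E1 (3 had an unadjusted p below 0.05). At E4 3 were raised and 3 lowered, in the authors' deposited table, with medians of -0.14 at E1 and 0.12 at E4. The DNA methyltransferase Dnmt3a rose by 0.93 ± 0.10, while Dnmt1 fell by 0.47 ± 0.13 and the histone methyltransferase Ehmt2 by 0.66 ± 0.09, in the authors' deposited table for E4. Of 22 signalling partners of the proteins, 3 were raised and 2 lowered at E1 and 6 raised and 2 lowered at E4 in the authors' deposited table, with medians of -0.03 and 0.06. The kinases Fyn and Ptk2 rose at E4 by 0.94 ± 0.09 and 0.89 ± 0.10, whereas Ptk2b fell by 0.68 ± 0.08 and the actin regulator Wasf3 by 0.55 ± 0.11, in the authors' deposited table.

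Protocadherins outside the clusters were called in both directions. For these and the classical cadherins, the shares of all tested genes are 20.6% raised and 15.0% lowered at E1. At E4 they are 20.7% and 18.3%. Of 11 non-clustered protocadherins tested, 6 were raised and 1 lowered at E1 and 4 raised and 3 lowered at E4 in the authors' deposited table. Their medians were 0.40 and 0.12. Pcdh8, a protocadherin known for activity-induced expression in neurons, rose by 3.99 ± 0.12 at E1 and 2.24 ± 0.12 at E4, whereas Pcdh19 and Pcdh20 fell by 1.58 ± 0.13 and 1.62 ± 0.09 at E4, in the authors' deposited table. Among 17 classical cadherins 5 were raised and 1 lowered at E1 and 1 raised and 5 lowered at E4, with medians of 0.43 and -0.06, while Cdh2 rose by 1.30 ± 0.08 at E4, in the authors' deposited table. The median mean count was 781 for the non-clustered protocadherins beside 61.3 for the tested clustered ones in the authors' deposited table for E4.

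Genes next to the clusters on the chromosome were called in both directions. Over all tested genes the shares were 20.6% raised and 15.0% lowered at E1, and 20.7% and 18.3% at E4. Of 14 neighbours tested, 1 was raised and 1 lowered at E1 and 3 raised and 3 lowered at E4 in the authors' deposited table. The median log2 fold changes were 0.05 and -0.12. Hdac3 and Pcdh1, raised at E4, are also counted above, among the silencing genes and the non-clustered protocadherins. Hars, a histidine tRNA ligase gene, rose by 1.10 ± 0.10 at E4 in the authors' deposited table, and Tmco6, which encodes a transmembrane protein, fell by 0.74 ± 0.22. Taf7, a general transcription factor gene that lies between the beta and gamma clusters, had log2 fold changes of -0.11 ± 0.31 at E1 and 0.15 ± 0.21 at E4 in the authors' deposited table, and was not called.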

How the data were processed

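Total RNA libraries of 9 mice in 3 groups are reported per the submitters' processing notes to have been processed with TopHat2 and DESeq2 on build mm9. Versions, counting program, annotation and strand setting were not given in the sources used here. Per the file headers, the deposited signal is a mean over libraries of counts divided by size factors, and the deposited log2 fold change comes with its SE, a score (their ratio), a p-value and an adjusted p. Each table has 24015 rows, and in that for E1 27 symbols had become dates and were left out of joins. The deposited fold change was closer to 0 than the ratio of solved means in 41 of 53 members at E1 and 50 of 53 at E4.

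The mean counts of genes with 1 read recur at 6 values per table, which give the size factors of its 6 libraries. All combinations of whole reads that give a gene's mean count to its printed digits in the table for E4 were searched, and then E1 reads that fit the other table with the same E0 reads. Of 15308 genes searched, 15145 had 1 solution, 41 several and 122 none. Of 2013 genes with mean counts of 10 to 60 and 1 combination, 2012 could be completed from their own mean in the table for E1 and 4 from that of another gene. The group that both tables share was taken as E0. Pcdhac2, Pcdhb9 and Pcdhga11, with mean counts above 140, had 3, 1 and 8 solutions within 0.3 log2 units of the deposited fold changes, and 1 each once libraries were held within 2-fold of their group mean. Normalised counts are on the scale of the table for E4.

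Calls are the authors' adjusted p below 0.05. E4 was compared with E1 over 12769 genes with mean counts of at least 10 in both tables (normal two-sided p, Benjamini-Hochberg). Solved reads were tested with voom of limma 3.58.1 (R 4.3.3), a test chosen after seeing the data. The planned count test for reads per library was not run, since only part of the genes have them. The members and gene lists were chosen with earlier results of these data known. Named are the members called in any comparison, all C-type genes, the 3 most read per cluster, up to 4 per other list with the smallest adjusted p, and Pcdh8, Ctcf and Taf7. Counts and p-values cover the spread between 3 mice per group, and intervals for 0 reads cover counting error only.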

Additional observations from a re-analysis of the deposited data

Results flagged for a closer look

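For 2 clustered protocadherins the change in E4 differed from that in E1 by the test of the difference itself. Pcdhgc3 differed by 0.92 on the log2 scale, with a fold change of -0.77 at E1 and 0.15 at E4 in the authors' deposited tables. Pcdhb4 differed by 1.40, with -0.69 at E1 and 0.71 at E4 in the authors' deposited tables, and its E1 values rest on 11, 8 and 0 reads. With library E1c (0 reads) left out, the voom estimate for Pcdhb4 was its lowest, at 1.19, and was still called.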

How the results depend on the processing

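No paired analysis was possible because the libraries behind the solved reads carry no replicate number. Each cluster median, under any member filter or centring tried, moved by less than the median SE of its genes. This is a wide limit, since that SE was larger than the median itself except for gamma at E4. No median changed sign, and the alpha median at E4 went from -0.20 to -0.16 with all members that had reads. At an adjusted p below 0.01 the members called fell to 1 at E1, 3 at E4 and 1 for E4 against E1, and with mean counts of at least 50 the last was also 1. With limma voom on solved reads, added after seeing the data and without Pcdhgc3 and Pcdhgc5, the counts were 4, 5 and 7. Leaving out 1 library in turn gave 1 to 4 members at E1, 0 to 7 at E4 and 4 to 10 for E4 against E1 in that fit. Without Pcdhac2, Pcdhb9 and Pcdhga11, whose reads were chosen with the help of the deposited fold change, it gave 4, 4 and 7. Adjusting over all genes with reads, without a filter on low counts, left 7 calls at E4, without Pcdhga8, Pcdhac1 and Pcdhga5. No call reversed among the 14 pairs of a called member and a comparison, and 16 of 64 repeats lost the call, 9 of them at the 0.01 threshold. The E1 libraries had the fewest reads, which limits the comparisons that use them.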
